A study of Arabidopsis thaliana with 2 samples.

Results

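The brightest nuclear transcripts of the Arabidopsis shoot were selected on their signal: a nuclear gene, with a locus identifier from AT1G to AT5G, entered if its signal was at least 1000 on both arrays of the study. Of 13217 nuclear genes with a probe set of their own, 102 met this rule, or 0.772%. Each gene was read from its brightest single-gene probe set. The signals of both arrays chose these genes, so their levels, their ranks and the ratios between the arrays are given as a description, with no test.

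The study measured total RNA from shoots of Arabidopsis thaliana ecotype Col-0 (stock N1092) with 2 Affymetrix ATH1 arrays, 1 per group. Plants of one group were raised on ATS agar with N-(1-naphthyl)phthalamic acid (NPA), a compound that blocks the directed movement of auxin between cells, added from a DMSO solution. The control plants received the same volume of DMSO without NPA. The labels give the NPA dose as 10 uM in one place, for the treated sample, and as 10 mM in another, the growth protocol that both samples share. Seeds of both groups were kept cold for at least 2 days, and shoots were harvested after about 2 weeks under 16 h of light at about 20 C, at stage 1.04 with about 6 rosette leaves. No other treatment or allele is labelled in either group. No difference below could be checked against replicates, and precision is limited by there being 1 array for each condition. In whole shoots, fewer cells of a type and less RNA per cell cannot be told apart.

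A leaf makes its RNAs in very unequal amounts. Nuclear genes for light-harvesting antennae, photosystem subunits and carbon-fixing enzymes are known as some of its most strongly expressed. Their proteins are made in the cytosol and imported into chloroplasts, where they join subunits encoded by the chloroplast's own genome. Enzymes of central metabolism and of protection against oxidants are common among the other abundant transcripts of green tissue.

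A signal is the brightness of a probe set on a linear scale. Probe sets differ in how strongly they bind their target, so a rank below is a rank of brightness and not of transcript number. A difference between the arrays is given as the log2 ratio of NPA over control, which is below 0 where the NPA array was dimmer. The arrays had median signals of 43.3 and 44.5 over 22746 probe sets, and their highest signals were 7142 and 6014. On both arrays 393 probe sets reached 1000, of which 245 have no gene name here, 18 match several genes, and 28 belong to organelle genes or to identifiers not matched to a nuclear locus. The 102 genes are therefore the named part of the brightest signals and not a complete list.

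The gene table gives a symbol to 29 of the 102 genes and a descriptive synonym to 5 more, and functions are described for these 34 genes alone, except CP5. The other 68 are listed by locus identifier only, so they are in no role class, though some of them stand in gene lists used below. By role, 17 of the 34 genes serve photosynthesis in a wide sense: 7 in light harvesting and the photosystems, 3 in the Calvin cycle, 5 in pigments and thylakoids, 1 in ATP synthesis and 1 in photorespiration. The other 17 comprise 5 genes of primary metabolism, 4 of redox protection, 3 known from stress or defence, 2 of protein breakdown, and HCT, AT1G53210 and CP5.

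**Figure D1:**
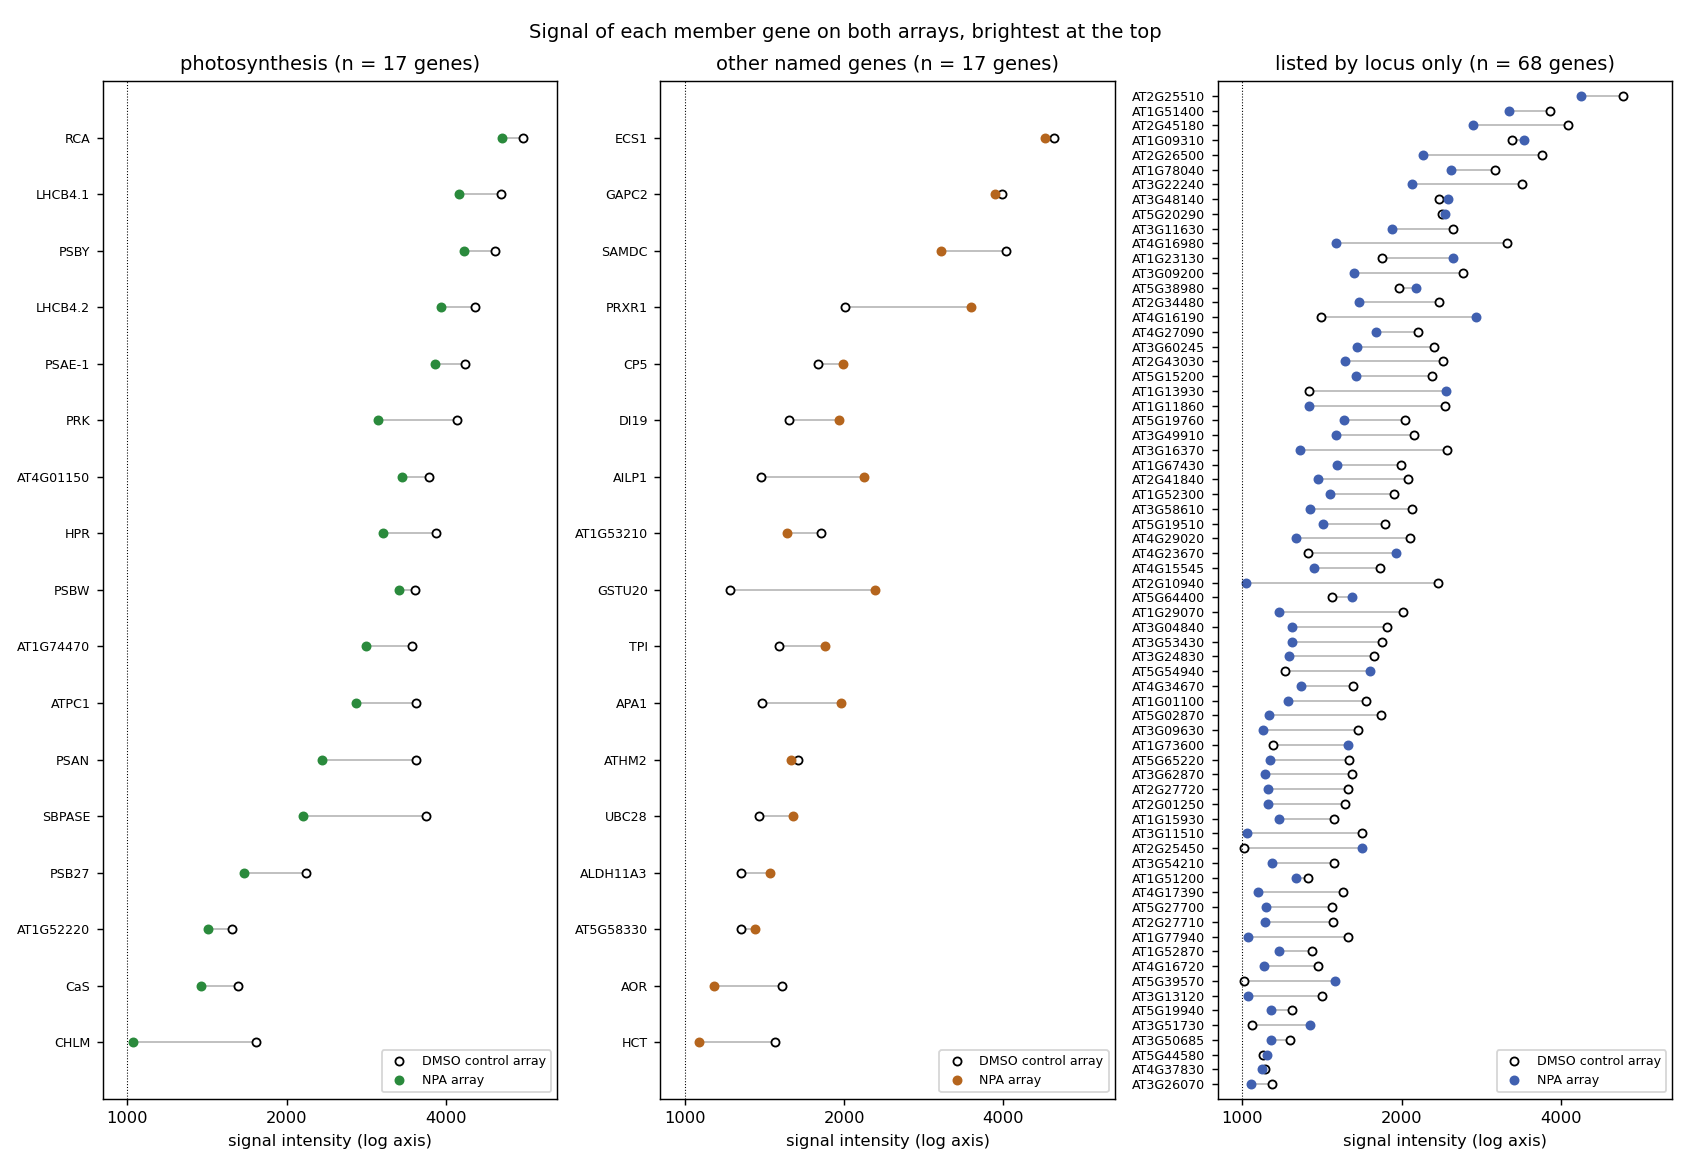
Signal intensity of all 102 genes on a log axis, in panels for the 17 photosynthesis genes, the 17 other named genes and the 68 genes listed by locus, with open circles for the control array, filled circles for the NPA array and a dotted line at the minimum of 1000. All 17 photosynthesis genes were dimmer on the NPA array on the deposited scale (7 of 17 after lowess centring), whereas 10 of the 17 other named genes and 15 of the 68 genes listed by locus were brighter.

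Photosynthesis genes filled much of the top of the order. Of the 10 brightest genes by mean log2 signal 6 were photosynthesis genes with a symbol or synonym, and of the 25 brightest 13 were, while 8 of the 25 are listed by locus only. RCA, rubisco activase, which keeps the carbon-fixing enzyme rubisco in its active state, was first on both arrays, with signals of 5597 for the control and 5105 for NPA. ECS1, known from work on bacterial disease, was next by mean signal, with 4979 and 4792. AT2G25510, listed by locus only, followed with 5244 and 4371. The antenna genes LHCB4.1 and LHCB4.2 and the photosystem genes PSBY and PSAE-1 took ranks 4 to 7, and GAPC2, PRK and SAMDC took ranks 8 to 10.

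The membership of the top was largely shared between the arrays. Of the 10 brightest named nuclear genes on each array 7 were common to both, and of the 25 brightest of the 102 genes 19 were. PRK, SAMDC and AT2G45180 were among the first 10 in the control alone, and GAPC2, PRXR1 and AT1G09310 took their places with NPA. Ranked among the 102 genes, PRXR1 moved the farthest of these 6 genes, from rank 44 in the control to rank 9.

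Further down, the order moved more. Across the 102 genes the signals of both arrays had a Spearman correlation of 0.60 and, on the log2 scale, a Pearson correlation of 0.75. These are correlations across genes on one pair of arrays, genes are not independent replicates, and the signal minimum narrows the range. The median gene changed its rank by 13.5 places, 23 genes by 5 places or fewer and 31 by more than 25. The longest moves were those of AT2G10940, from rank 33 in the control to 102, and of GSTU20, a glutathione S-transferase, from 94 to 27. AT4G16190 went from 81 to 18 and AT1G13930 from 87 to 24.

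Rank changes are given here by role without a test, and 13 of the 17 photosynthesis genes were among the 25 brightest. Among the 17 photosynthesis genes CHLM had the largest, from 57 to 99, and the next was SBPASE, from 16 to 30. Of the other named genes, AILP1 went from 83 to 29, APA1 from 82 to 34, UBC28 from 85 to 48 and DI19 from 69 to 35, whereas AOR went from 72 to 82 and HCT from 77 to 96. ECS1, GAPC2 and SAMDC, all among the 10 brightest, moved by 4 places or fewer. A rank among these genes depends on all the others, so a gene with an equal signal can still change its place.

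**Figure D2:**
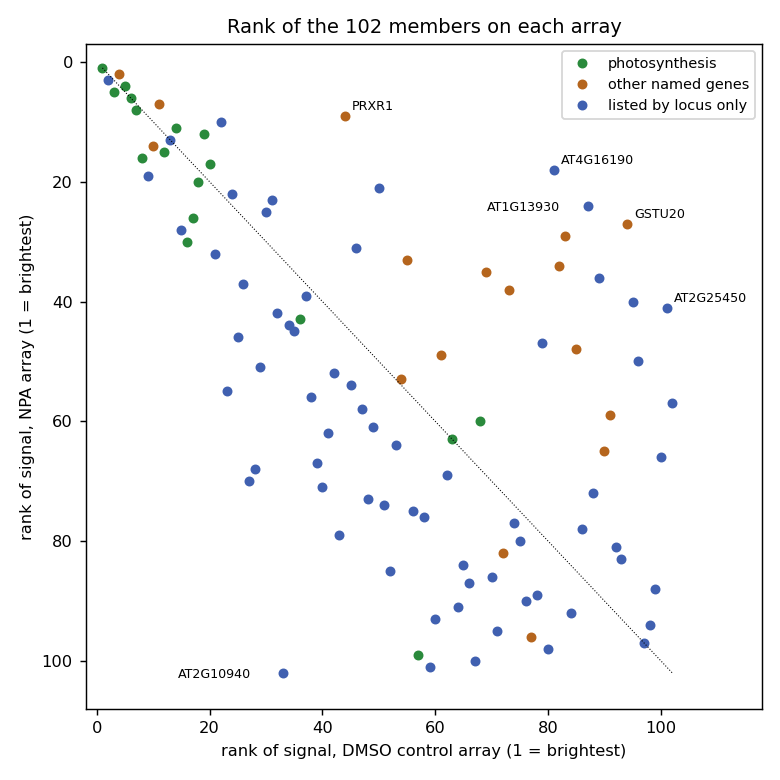
Rank of each of the 102 genes on the control array (x axis) and the NPA array (y axis), where 1 is the brightest, coloured by role. Points on the dotted line kept their rank, as RCA did at rank 1, while PRXR1, AT4G16190, AT1G13930, GSTU20 and AT2G25450 lie far above the line and AT2G10940 far below it.

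More of these genes were dimmer than brighter on the NPA array. The median log2 ratio over the 102 genes was -0.34, with quartiles of -0.50 and -0.03, and 77 genes were below 0. Of the 6723 named nuclear genes above the floor on both arrays, a floor set at the 40th percentile of each array, 51.5% were below 0. At least 1.5-fold lower with NPA were 20 of the 102 genes, beside 10.9% of the 6723, and at least 1.5-fold higher were 6, beside 11.4%. At least 2-fold lower were 2, AT2G10940 and AT4G16980, beside 2.17%, and 0 were at least 2-fold higher, beside 3.73%. The 1.5-fold split turned with the scale, to 12 higher and 4 lower of the same 102 genes after lowess centring and also after quantile normalization. The rule asked for a high signal on both arrays and so bears on these counts, and nothing is read from them.

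Over all named genes, the log2 ratio was lower in the bright bands than in the dim ones. Among 2107 named genes whose lower signal was from 100 to under 300 the median log2 ratio was 0.01, and among 588 genes from 300 to under 1000 it was -0.07. A lowess curve of the log2 ratio on the mean log2 signal, fitted over 12824 probe sets, stood at -0.20 at a signal of 1000 and at -0.35 at 4000. Within the 102 genes the ratio did not deepen with brightness: the median was -0.26 for the 25 brightest by mean log2 signal, -0.39 for ranks 26 to 50, -0.33 for ranks 51 to 75 and -0.39 for ranks 76 to 102. After lowess centring the 25 brightest had a median of 0.10. The bright probe sets outside the 102 genes were also lower, with medians of -0.23 over the 245 unnamed, -0.35 over the 18 that match several genes and -0.29 over the 28 of organelle genes or unmatched identifiers. Bright control probe sets gave other values: 5 hybridisation spike-ins ranged from -0.16 to 0.06, and 12 probe sets for Arabidopsis actin, GAPDH and ubiquitin ranged from -0.09 to 0.53 with a median of 0.22. The part of signal level in the difference was not tested. After lowess centring the median of the 102 genes was -0.06, with 53 below and 49 above 0, and after quantile normalization it was -0.10, with 58 below 0. Each role class below is therefore given on the deposited scale and after lowess centring. Medians of gene lists and sums of marker genes are given on the deposited scale alone.

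**Figure D3:**
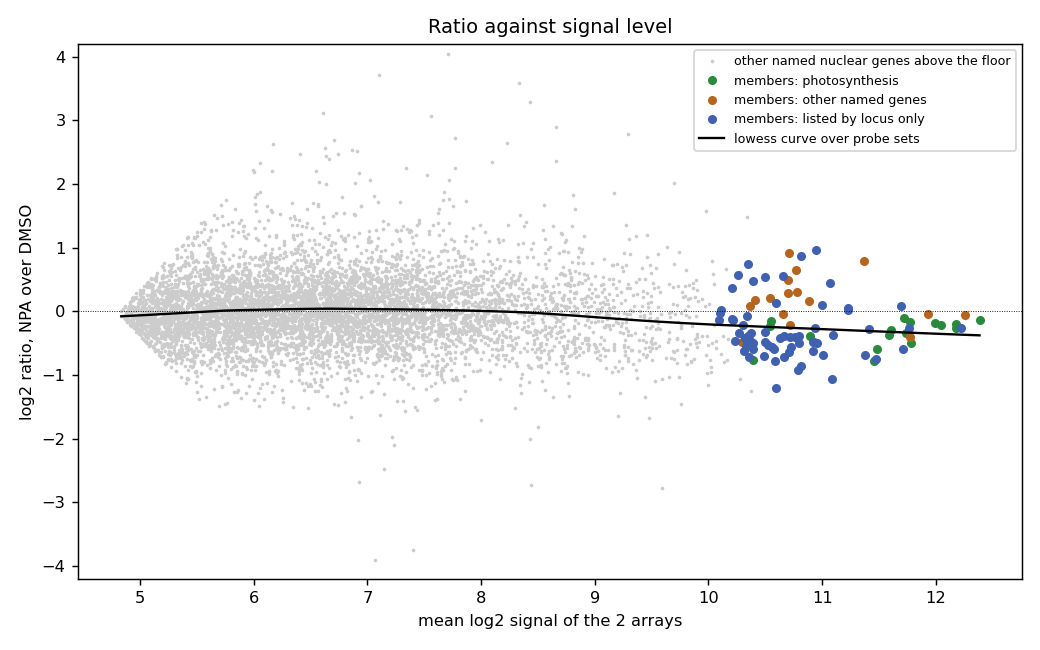
Log2 ratio of NPA over control (y axis) against the mean log2 signal of both arrays (x axis) for the named nuclear genes above the floor, with the 102 genes coloured by role and the lowess curve in black. The curve bends below 0 at the bright end, to -0.20 at a signal of 1000 and -0.35 at 4000.

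The spread of the log2 ratio was somewhat narrower among the brightest genes than below. Its SD over genes was 0.44 for the 102 genes and 0.51 for both the 588 and the 2107 genes of the lower bands, and the rule itself keeps out genes that were bright on 1 array alone. On the control array alone 52 further genes reached 1000, and on the NPA array alone 30 did. Within 1.2-fold between the arrays were 30 of the 102 genes. The 5 genes nearest to a log2 ratio of 0 were AT4G37830, AT5G20290, AT5G44580, GAPC2 and ATHM2, the last a thioredoxin of the chloroplast. AT4G37830 had signals of 1105 for the control and 1090 for NPA, AT5G20290 had 2380 and 2419, and AT5G44580 had 1097 and 1115. These genes span much of the brightness range of the 102.

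Genes on either side of the minimum leaned both ways. Just inside were AT5G39570, with 1008 for the control and 1496 for NPA, AT2G25450, with 1010 and 1688, AT2G10940, with 2349 and 1017, and AT3G11510, with 1682 and 1020. Just outside were AT1G75280, with 999 and 1536, AT5G27850, with 1343 and 993, AT2G41090, with 985 and 1069, and AT2G46220, with 1142 and 983.

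Together the 17 photosynthesis genes had a median log2 ratio of -0.27, with all 17 below 0. The role classes were written with the values known, so this count depends on where genes were placed. After lowess centring the median was 0.03, with 7 below and 10 above 0. The gene lists place AT1G51400, AT2G26500 and AT1G11860 in such roles too, but the gene table lists them by locus only. Outside the 17, their log2 ratios were -0.25, -0.75 and -0.86, and 0.08, -0.43 and -0.59 after lowess centring. The genes of light harvesting and the photosystems were among the brightest. All 7 were below 0 on the deposited scale, with log2 ratios from -0.59 to -0.10 and a median of -0.21, but 5 of the 7 were above 0 after lowess centring, where the median was 0.14. LHCB4.1 and LHCB4.2 encode a minor antenna protein that passes light energy to photosystem II. LHCB4.1 had signals of 5085 for the control and 4230 for NPA, and LHCB4.2 had 4532 and 3918, so their log2 ratios differed by only 0.06. Transcripts of such closely related genes may bind each other's probes, so these may not be separate measurements. PSBY, a small photosystem II subunit, had 4958 and 4336. PSAE-1, a photosystem I subunit that faces the stroma, had 4355 and 3820. PSBW, another small photosystem II subunit, had the smallest difference of the 7, with 3492 and 3260.

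PSAN and PSB27 stood lower within this group on both scales. PSAN, a photosystem I subunit on the lumen side, had signals of 3515 for the control and 2335 for NPA, and its log2 ratio was -0.59 as deposited and -0.28 after lowess centring. PSB27, which helps to assemble and repair photosystem II, had 2175 and 1661, with log2 ratios of -0.39 and -0.12. A list of 46 light-harvesting and photosystem genes, which is not the same set as this class, held 8 with a probe set of their own. Of these 8, 7 met the rule: the class without PSB27, and AT1G51400, which the gene table lists by locus only. The one that did not was LHCB4.3, related to the other antenna genes, with 305 and 276. ATPC1, the gamma subunit of the chloroplast ATP synthase, had 3513 and 2710, and its log2 ratio of -0.37 was -0.05 after lowess centring.

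The genes of the Calvin cycle differed more among themselves. RCA had a log2 ratio of -0.13, PRK of -0.50 and SBPASE of -0.77, and after lowess centring the values were 0.24, -0.16 and -0.46, in the same order. PRK, phosphoribulokinase, makes the sugar phosphate that accepts carbon dioxide, and had signals of 4191 for the control and 2973 for NPA. SBPASE, a phosphatase of the phase that regenerates this acceptor, had 3671 and 2147. HPR, the peroxisomal hydroxypyruvate reductase of photorespiration, the pathway that recycles the product rubisco makes with oxygen, had 3832 and 3043, and its log2 ratio of -0.33 was near 0 after lowess centring. Of 23 listed Calvin cycle genes 4 had a probe set of their own and 3 met the rule. So did 2 of 4 such genes among 21 of photorespiration and nitrogen assimilation and 2 of 2 among 11 of electron transport. These counts include AT1G11860 and AT2G26500, which the gene table lists by locus only.

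The genes of pigments and thylakoids were all below 0 on the deposited scale, with a median log2 ratio of -0.24, and 4 of the 5 were above 0 after lowess centring, where the median was 0.03. The exception was CHLM, a methyltransferase of chlorophyll synthesis, with signals of 1749 for the control and 1027 for NPA, a log2 ratio of -0.77 and of -0.53 after lowess centring. AT1G74470, a geranylgeranyl reductase that supplies the tail of chlorophyll, had 3449 and 2820. AT4G01150 and AT1G52220, listed with the synonyms CURT1A and CURT1C, encode proteins that bend the thylakoid membrane. AT4G01150 had 3722 and 3298, AT1G52220 had 1579 and 1424, and their log2 ratios differed by 0.03. CaS, a calcium-sensing protein of the thylakoid, had 1621 and 1376.

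**Figure D4:**
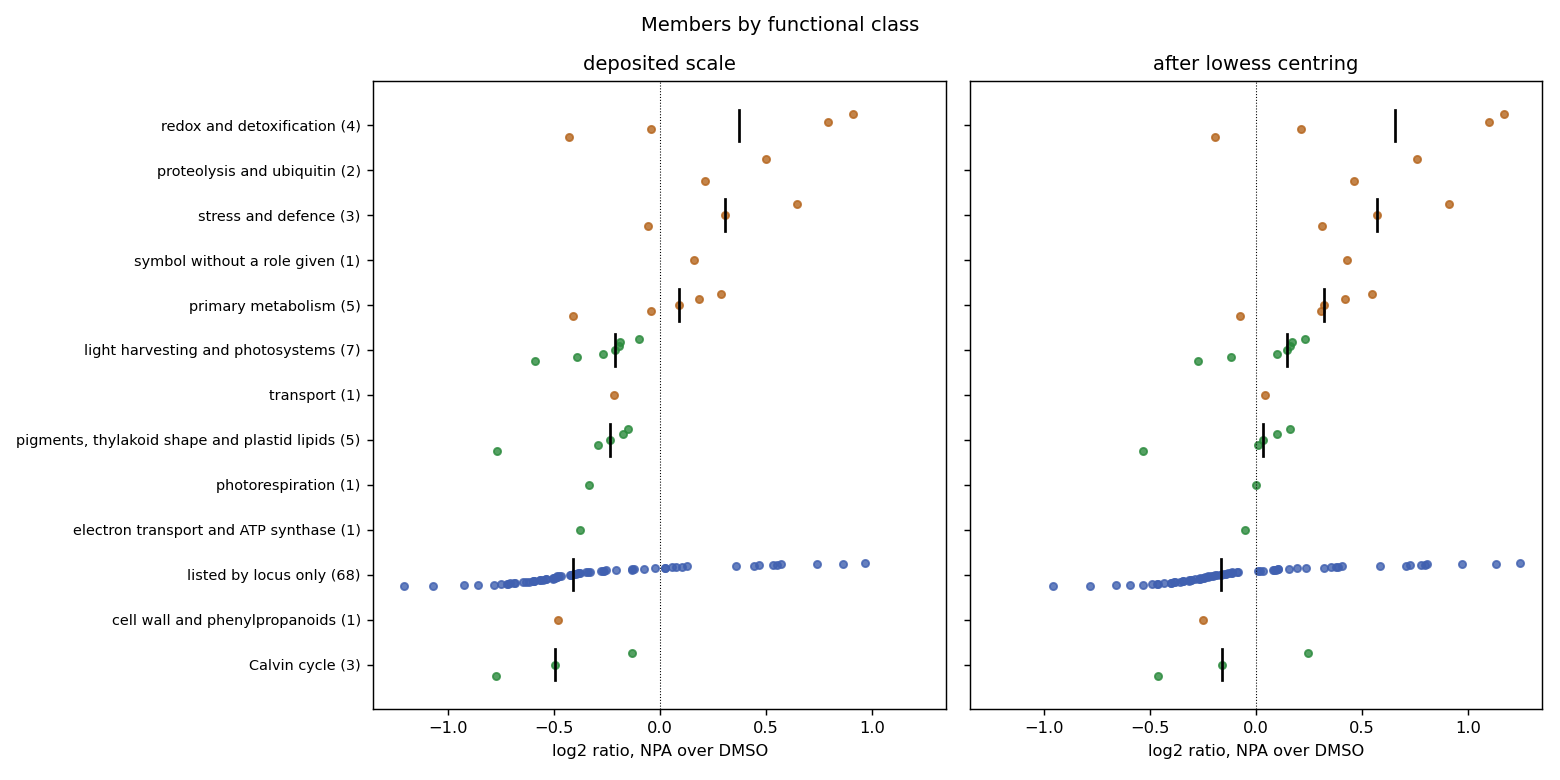
Log2 ratio of NPA over control for each of the 102 genes by role, on the deposited scale (left) and after lowess centring (right), with a black bar at the median of each class of 3 or more genes and the number of genes in brackets. The median of the light-harvesting class lies at -0.21 on the left and 0.14 on the right. The medians of the redox, stress and primary metabolism classes lie above 0 in both panels. That of the redox class rests on 4 genes, of which 2 lie below 0 on the left and 1 on the right. Genes listed by locus only form a class of their own.

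The other 17 named genes had a median log2 ratio of 0.16, with 10 above 0, and of 0.42 after lowess centring, with 14 above 0. The redox genes held the widest spread. GSTU20, which joins glutathione to harmful compounds, had signals of 1216 for the control and 2290 for NPA, and PRXR1, a class III peroxidase, had 2009 and 3482. Their log2 ratios were 0.91 and 0.79 as deposited, and 1.17 and 1.10 after lowess centring. ATHM2 had 1636 and 1589. AOR, an alkenal/one oxidoreductase, had 1525 and 1134, a log2 ratio of -0.43 that was -0.20 after lowess centring. AT3G11630, held by a list of metallothioneins and redox genes, is outside this class because the gene table lists it by locus only. It had 2497 and 1922, a log2 ratio of -0.38 that was -0.09 after lowess centring.

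The 3 genes classed under stress or defence went from near 0 upwards. AILP1, named for its likeness to aluminium-induced proteins, had signals of 1396 for the control and 2185 for NPA. DI19, named for its induction by drought, had 1577 and 1955, and ECS1 was near its control level at a log2 ratio of -0.06. After lowess centring the 3 values were 0.91, 0.57 and 0.31. Of 13 listed cold and water stress genes 5 had a probe set of their own, and 0 met the rule. AT1G54410, whose synonym in the gene table is dehydrin, came closest of these, with 907 and 1434. The 4 of this list above the floor on both arrays had a median log2 ratio of 0.98. In a list of 23 defence and glucosinolate genes, 5 were above the floor, with a median of -0.52, and 0 met the rule. These 5 log2 ratios ran from -2.78 to 0.88, and the median is the value of PYK10, also a root marker below.

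Both genes of protein breakdown were brighter on the NPA array on the deposited scale and after median centring, quantile normalization and lowess centring. APA1, an aspartic proteinase, had signals of 1398 for the control and 1978 for NPA, and UBC28, which passes ubiquitin to other proteins, had 1380 and 1602. After lowess centring their log2 ratios were 0.76 and 0.46.

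Primary metabolism was divided on the deposited scale, with 3 of 5 genes above 0 and a median log2 ratio of 0.09, and 4 of 5 were above 0 after lowess centring, where the median was 0.32. GAPC2, the cytosolic glyceraldehyde-3-phosphate dehydrogenase of glycolysis, had signals of 3968 for the control and 3858 for NPA. TPI, the cytosolic triose phosphate isomerase, had 1507 and 1844. ALDH11A3, an aldehyde dehydrogenase that oxidises glyceraldehyde 3-phosphate without making ATP, had 1276 and 1449, and AT5G58330, a NADP-dependent malate dehydrogenase, had 1277 and 1359. SAMDC, S-adenosylmethionine decarboxylase of polyamine synthesis, stood apart as the one below 0 on both scales, with 4043 and 3044.

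The last 3 named genes belong to no larger group. HCT, a hydroxycinnamoyl transferase that makes precursors of lignin, had signals of 1481 for the control and 1063 for NPA, and its log2 ratio of -0.48 was -0.25 after lowess centring. AT1G53210, a sodium/calcium exchanger, had 1812 and 1560, and CP5 had 1785 and 1994.

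The 68 genes listed by locus carried both ends of the range. Their median log2 ratio was -0.41, with 53 below 0, and -0.16 after lowess centring, with 43 below 0. At least 1.5-fold lower were 17 of them, beside 10.9% of the 6723 genes, and 3 were at least 1.5-fold higher, beside 11.4%. After lowess centring this turned to 4 lower and 8 higher. AT4G16190 had the highest ratio of all 102 genes, with signals of 1412 for the control and 2764 for NPA, or 1.96-fold. AT1G13930 had 1335 and 2431, and AT2G25450 had 1010 and 1688. After lowess centring AT4G16190 and AT1G13930 passed 2-fold, at log2 ratios of 1.24 and 1.13, as did GSTU20 and PRXR1.

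At the lower end, AT2G10940 had signals of 2349 for the control and 1017 for NPA, a 2.31-fold difference and a log2 ratio of -1.21. AT4G16980 had 3158 and 1505, a log2 ratio of -1.07. After lowess centring both were under 2-fold, at -0.96 and -0.78. AT4G16980 was the one gene of the 102 with a second probe set of its own, which was dim, with 38.8 and 22.9. AT3G16370 had 2437 and 1285, AT1G11860 had 2419 and 1335, and AT1G29070 had 2016 and 1173. These 5 genes and SBPASE had the lowest ratios of the 102 on the deposited scale.

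Among the brightest genes listed by locus, AT2G45180 had signals of 4119 for the control and 2725 for NPA, and AT1G51400 had 3808 and 3193. AT1G09310 had 3231 and 3410, and was 1 of 3 genes above 0 among the 25 brightest on the deposited scale, where 16 were above 0 after lowess centring. The probe set of AT3G26070, with 1139 and 1041, was the one among the 102 of a type that can bind transcripts of several genes.

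The 102 genes were spread over all 5 chromosomes, which the rule did not use. By locus identifier 30 lie on chromosome 1, 14 on chromosome 2, 23 on chromosome 3, 16 on chromosome 4 and 19 on chromosome 5. Chromosome 1 held 29.4% of them beside 25.8% of all 13217 genes, and chromosome 5 held 18.6% beside 22.6%. AT2G27710 and AT2G27720 were the only neighbours among the 102 genes, with log2 ratios of -0.42 and -0.50.

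The label of shoot tissue was set against marker genes. The same signals chose the 102 genes, so a marker's membership is no independent check of the label. All 5 of 8 green shoot markers with a probe set of their own, RCA, LHCB4.1, LHCB4.2, PRK and SBPASE, were among the 102 genes. Of 7 root markers 3 had one, with summed signals of 665 for the control and 471 for NPA, led by PYK10 with 609 and 425, and EXPA7 was below the floor on both arrays. Of 6 guard cell and epidermis markers 2 were read, with sums of 231 and 143, and of 6 vascular markers SWEET11 alone, with 1035 and 746. None of these other markers met the rule, 0 of 7 flower and seed markers could be read, and their part in the ratios was not tested.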

How the data were processed

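RNA from 2 shoot samples, both numbered replicate 1, was hybridised to ATH1 arrays, and groups follow the labelled treatment. The deposited values are linear signal intensity by probe set; MAS5 and GCOS are named, with no version, in the submitters' processing notes. The mean without the lowest and highest 2% of signals was 99.2 for the control and 99.3 for NPA, so both arrays came scaled alike. Of 22746 probe sets without controls, 13513 have 1 gene, 503 several and 8730 none here. Of the single-gene sets 13436 were matched to the TAIR10.1 gene table, which gave locus identifiers, names and neighbours. Sets without a match could not meet the rule.

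The floors were 28.3 and 27.9, and the lowess span was 0.3. Named genes were the brightest 10, the 6 highest and 6 lowest ratios, the 3 brightest of each class of 3 or more, the 5 nearest 0, the 4 largest rank changes, and the 4 nearest the minimum on each side. Other genes with a symbol or synonym, AT1G54410, AT3G26070, AT1G09310 and the neighbouring pair were added with their values known, and so were the role classes. Members and lists were chosen with earlier results of these data known. Of 222 genes in 14 lists 40 had a probe set of their own and 18 met the rule. Lists of protein folding, translation and transport had 0 readable genes. Those of RNA binding, cytoskeleton and defence had 1, 4 and 7, with 0 meeting the rule. Metallothioneins and redox had 2, with 1 meeting it. Lipid transfer had 2 of 2, and primary metabolism 1 of 1. Sequences were not analysed here. On simulated arrays, 200 of 200 planted genes were recovered. That run checked only the steps that choose genes and take ratios. It gives no measure of how well differences are detected on arrays without replicates. Python 3.11.15, numpy 2.4.6, pandas 2.3.3, statsmodels 0.14.6 and matplotlib 3.10.9 were used.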

Additional observations from a re-analysis of the deposited data

How the results depend on the processing

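No paired analysis was possible with 1 array per group, and no array could be left out. Of 136 values of counts, medians and correlations under the alternatives, 85 moved little and 51 moved. Moving little meant a log2 value by up to 0.21, a count by up to 1.5 times or a rank correlation by up to 0.1. The 0.21 is the SD over all 18 hybridisation spike-ins, dim ones included, and the SD of the 5 bright ones was 0.09. A minimum of 500 gave 332 genes, 221 below 0, 22 higher and 59 lower by 1.5-fold, 3 and 10 by 2-fold, and a rank correlation of 0.73. A minimum of 2000 gave 26 genes, 22 below 0, 1 higher and 5 lower by 1.5-fold, and 0 lower by 2-fold. A mean signal of 1000 or more gave 13 and 32 genes by 1.5-fold and 3 and 6 by 2-fold. With median centring, and with all probe sets of a gene averaged, 1 gene was 2-fold lower. Quantile normalization gave a median log2 ratio of -0.112, 10 higher and 4 lower genes by 1.5-fold, and 4 and 1 by 2-fold; with the 102 genes kept these were -0.0981, 12, 4, 4 and 1. Lowess centring gave -0.0892, 10, 4, 4 and 0, and with the 102 genes kept -0.0635, 12, 4, 4 and 0. The split of 1.5-fold calls thus turned from mostly lower to mostly higher, and the cause was not tested. Class medians after quantile normalization were -0.199 for the Calvin cycle, 0.0258 for light harvesting, 0.0495 for pigments, 0.305 for primary metabolism, 0.608 for redox and -0.194 for genes listed by locus. After lowess centring they were -0.160, 0.143, 0.0323, 0.321, 0.655 and -0.164, and 0.572 for stress and defence. Class medians were not run with a minimum of 500 or a mean of 1000, since roles were written for the 102 genes alone. Of 195 log2 ratios of 39 named genes, 136 moved little and 59 moved, 38 of them with lowess centring. Keeping the 102 genes and counting genes below 0 were added after the data were seen.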
